A study of Mus musculus with 14 samples.

Results

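The genes of the cytotoxic granule, and of serpins that restrain granule proteases, were followed by RNA sequencing in CD4 T cells of the mouse with and without TRAIL, a ligand of death receptors. The 10 genes were taken by symbol: the granzymes Gzma, Gzmb, Gzmk and Gzmm, the pore former Prf1, the granule proteoglycan Srgn, the cysteine protease Ctsw, and the serpins Serpinb9, Serpina3f and Serpina3g. All 10 were present among the 20875 genes of the culture table and among the 18855 genes of the mouse table, and all 10 passed the filter of a mean of at least 1 TPM (a transcript level per length, scaled to the same total in each library) in both. In culture, wild type C57BL/6 primary CD4 T cells, labelled as lymph node, were held in RPMI medium alone (n = 2), with antibodies to CD3 and CD28 labelled at 1 mg/ml (n = 3), or with those antibodies and TRAIL at 10 ug/ml (n = 3). The mouse libraries were labelled as primary CD4 T cells from spleen of C57BL/6 animals whose TRAIL receptor alleles were floxed (TRAIL-R f/f). They came from TRAIL-R f/f with vehicle (n = 1), TRAIL-R f/f with TRAIL (n = 3), and Lck Cre TRAIL-R f/f with TRAIL (n = 2). The bracketed name of the vehicle library is B6_spleen, so its floxed genotype rests on the rest of its label. The bracketed name of replicate 1 of the libraries labelled Lck-Cre, Cre_spleen, has no TRAIL tag, so its TRAIL treatment rests on its title. The Lck promoter drives Cre in the T lineage, so other cells keep the receptor. The labels used here give no age, TRAIL dose in animals or culture time. Whether replicates came from different animals or cultures is not in the labels, and p-values then cover the spread between libraries alone, which may be technical.

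Cytotoxic granules deliver perforin, which opens the target membrane, and granzymes, serine proteases that enter and cut proteins of the target cell. Serglycin holds these cargoes in the granule, and serpins trap proteases that leak into the cell's own cytosol by forming a covalent complex with them. The programme is best known from CD8 T and NK cells, while CD4 T cells can take up part of it after activation.

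Read numbers recovered from TPM and gene length came to 19.2 to 56.9 M per library. The marker genes of CD4 T cells (10 genes, such as Cd4, Cd3e and Trac) summed to 3346 to 4362 TPM in culture and to 449 to 1918 TPM in the mouse libraries. In the mouse libraries 14 neutrophil genes, such as S100a8 and S100a9, summed to 19068 to 104065 TPM, so neutrophil transcripts exceeded those of the CD4 T cell list in each of them. None of either list was at 0 there, but neither was any of the 18855 genes listed, so this tells nothing about the cells. Tnfrsf10b, the mouse TRAIL receptor gene, stood at 1.82 TPM in the vehicle library, at 1.64, 1.46 and 2.31 TPM in the floxed libraries with TRAIL, and at 2.04 and 3.50 TPM in the libraries labelled Lck-Cre. It was not lower in the latter (log2 fold change 0.41, SE 0.29, limma adjusted p = 0.999847). The value covers the whole gene, and the labels do not say which part was floxed. The genotype is therefore given below as labelled.

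The upstream sequences of 4 members are shown because these genes represent the 3 patterns described below: Gzmb rose most with stimulation and fell most with TRAIL, Gzmk went the other way, and the A3 serpins rose with stimulation and did not fall with TRAIL. Each is the window of 250 bases before the RefSeq gene start on GRCm38.p6, at chr14:56262335-56262584 (minus strand) for Gzmb, chr13:113180966-113181215 (minus strand) for Gzmk, chr12:104214294-104214543 (plus strand) for Serpina3f and chr12:104235897-104236146 (plus strand) for Serpina3g. Capitals mark matches to the motifs searched.
Gzmb: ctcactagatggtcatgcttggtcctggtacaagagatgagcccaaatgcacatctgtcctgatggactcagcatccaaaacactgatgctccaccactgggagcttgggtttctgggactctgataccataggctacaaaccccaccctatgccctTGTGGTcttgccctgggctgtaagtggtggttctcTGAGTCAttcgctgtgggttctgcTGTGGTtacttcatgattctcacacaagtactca
Gzmk: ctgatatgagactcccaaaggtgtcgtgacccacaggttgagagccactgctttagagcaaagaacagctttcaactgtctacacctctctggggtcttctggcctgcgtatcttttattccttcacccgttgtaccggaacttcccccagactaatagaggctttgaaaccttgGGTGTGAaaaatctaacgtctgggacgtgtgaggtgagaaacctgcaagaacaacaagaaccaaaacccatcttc
Serpina3f: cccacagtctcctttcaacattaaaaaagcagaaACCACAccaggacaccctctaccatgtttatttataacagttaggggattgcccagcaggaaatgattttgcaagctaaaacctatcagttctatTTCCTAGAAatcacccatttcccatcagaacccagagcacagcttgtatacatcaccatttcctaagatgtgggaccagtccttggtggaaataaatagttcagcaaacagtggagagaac
Serpina3g: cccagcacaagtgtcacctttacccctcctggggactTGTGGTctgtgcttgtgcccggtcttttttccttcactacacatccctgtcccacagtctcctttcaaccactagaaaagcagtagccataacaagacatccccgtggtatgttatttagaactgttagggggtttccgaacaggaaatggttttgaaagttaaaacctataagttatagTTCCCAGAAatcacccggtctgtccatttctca

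RefSeq windows were found for 9 of the 10 genes, all but Ctsw. Searched on both strands were the AP-1 motif TGANTCA, the RUNX motif TGTGGT, the STAT motif TTCNNNGAA and the T-box motif GGTGTGA, and no 2 matches overlapped in the windows shown. Gzmb held the AP-1 match with its first base 58 bases before the start, position -58, and RUNX matches at -93 and -34. The AP-1 motif was present in 6.7% of all 32851 windows of this length and, among the members, in Gzmb alone. The RUNX motif was found in 6 of 9 members (Gzma, Gzmb, Gzmm, Prf1, Serpina3f and Serpina3g) and in 14% of all windows. The STAT motif was in Gzmm, Serpina3f and Serpina3g, at -86, -121 and -33, and in 7.0% of all windows. The T-box motif was in Gzmk alone, at -75, and in 3.3% of all windows. The Gzmk start used by RefSeq lies inside the longer span that GENCODE gives the gene. Serpina3f and Serpina3g windows were identical at 125 of 158 aligned bases (79.1%). A match describes letters in the window and not binding.

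On GRCm38 in the GENCODE annotation, Gzmb occupies chr14:56258838-56262260. Gzma (chr13:113093825-113100981) and Gzmk (chr13:113171608-113225908) are neighbours 70.6 kb apart. Gzmm (chr10:79689020-79695261), Prf1 (chr10:61297833-61304680) and Srgn (chr10:62493833-62527451) share chromosome 10. Ctsw lies at chr19:5465043-5468507 and Serpinb9 at chr13:33003250-33017957. Serpina3f (chr12:104214544-104221129) and Serpina3g (chr12:104236245-104241939) lie 15.1 kb apart. Of the 50-base words of their transcripts, 10.7% of those of Serpina3f and 16% of those of Serpina3g also occur in related genes, against 0.4% for Serpinb9 and 0.0% for the other 7 genes. How the authors' counting split such reads is not stated in the sources used here, so the separate levels of Serpina3f and Serpina3g are less certain.

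The first comparison asked how the genes answered stimulation through CD3 and CD28. Gzmb and Gzma rose most, Prf1, Srgn and the 3 serpins rose, Ctsw rose least together with Serpinb9, and the low granzymes Gzmk and Gzmm fell. The counts were 8 members higher and 2 lower, with 10 of 10 called, in a comparison where limma called 76.5% of all genes tested (27.5% higher, 49.0% lower). The median log2 fold change was 1.69 over the members and -0.32 over all genes. The 2 groups did not overlap for any of the 10 members, as for 84.5% of all genes. Most genes passed both criteria, so the share of members called is read only beside these values and the size of the changes carries the description. Fold changes below are on the log2(TPM + 1) scale, which understates those of low genes.

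Gzmb, whose product cuts after aspartate and activates caspases, was at 12.5 and 14.1 TPM in medium and at 1571, 1614 and 1517 TPM with stimulation. Every stimulated library lay far above both in medium, and the ratio of mean TPM was 118 (log2 fold change 6.78, SE 0.09, limma adjusted p = 1.19e-08). Gzma, a granzyme with trypsin-like cutting, went from 11.3 and 10.8 TPM to 233, 166 and 179 TPM. The groups were again well apart, by a ratio of 17.5 in mean TPM (log2 fold change 3.99, SE 0.15, adjusted p = 1.89e-07). In medium the levels of Gzma and Gzmb per transcript length were alike, whereas after stimulation Gzmb was the higher in each library.

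Gzmk, a second trypsin-like granzyme and the chromosomal neighbour of Gzma, was at 2.86 and 3.77 TPM in medium and at 0.681, 0.513 and 1.07 TPM with stimulation. All 3 stimulated libraries were below both in medium (log2 fold change -1.30, SE 0.18, adjusted p = 2.54e-04). The reads behind these values numbered 46 and 55 in medium and 15, 10 and 18 with stimulation. Gzmm, a granzyme that cuts after methionine and leucine and is known from NK cells, was at 1.91 and 2.44 TPM and at 1.08, 0.863 and 1.23 TPM, from at most 36 reads a library. It fell in the fit (-0.62, SE 0.15, adjusted p = 0.00566), but the authors' deposited table gives it an adjusted p of 0.0679.

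Prf1, which encodes perforin, was at 13.7 and 13.2 TPM in medium and at 36.2, 43.2 and 39.5 TPM with stimulation. It rose by 1.49 on the log2 scale (SE 0.09, adjusted p = 1.79e-06), a ratio of 2.94 in mean TPM and so far less than Gzmb. Srgn, which encodes serglycin, was the most abundant member in every culture library, at 664 and 682 TPM in medium and at 2961, 2279.6 and 2374 TPM with stimulation. It rose by 1.90 (SE 0.11, adjusted p = 1.37e-06), and replicate 1 was the highest of the stimulated libraries. Ctsw, a papain-like protease found mainly in CD8 T and NK cells, stood at 19.4 and 17.8 TPM and at 30.8, 29.1 and 27.8 TPM (0.63, SE 0.08, adjusted p = 1.89e-04).

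Serpinb9, the inhibitor of granzyme B, was at 52.2 and 47.6 TPM in medium and at 82.7, 74.4 and 72.8 TPM with stimulation. It rose by 0.61 (SE 0.08, adjusted p = 1.70e-04). Serpina3g, a cytosolic serpin known as an inhibitor of cysteine cathepsins, was at 8.89 and 8.53 TPM and at 38.8, 36.7 and 30.8 TPM. Its rise was 1.90 (SE 0.11, adjusted p = 1.42e-06). Serpina3f, its A3 clade neighbour, was at 4.46 and 4.36 TPM and at 38.3, 39.9 and 37.8 TPM, and rose by 2.87 (SE 0.07, adjusted p = 4.19e-08). The A3 serpins thus had larger fold changes than Serpinb9, which had been the highest of the 3 in medium.

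**Figure D1:**
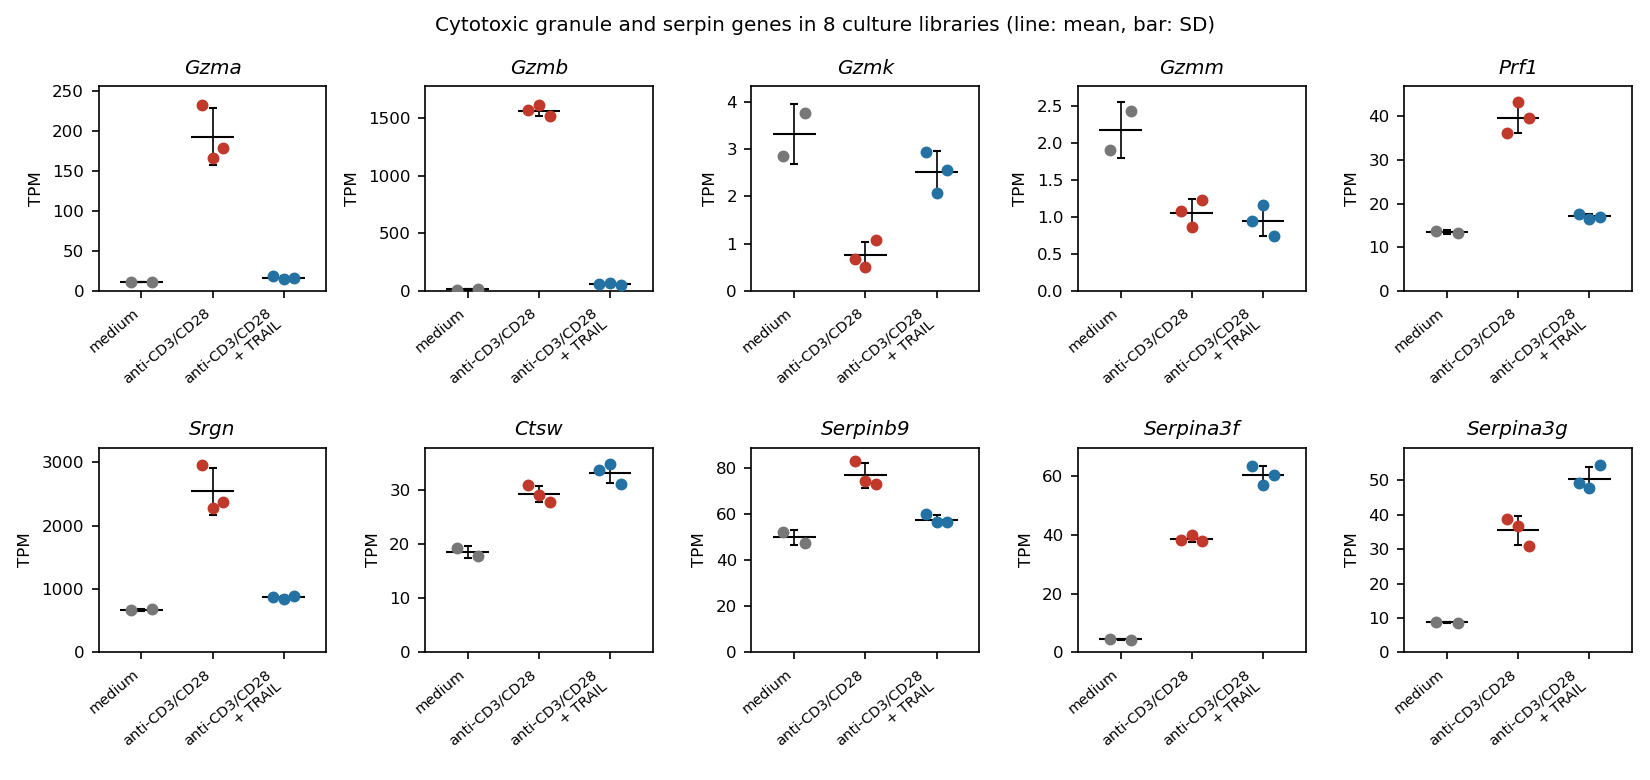
TPM of each gene in the 8 culture libraries (points), with the group mean (line) and SD (bar), on linear axes from 0. Gzma, Gzmb, Prf1 and Srgn were high with stimulation alone, at 1517 to 1614 TPM for Gzmb, Gzmk was lowest there, and the A3 serpins were highest when TRAIL was present.

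The second comparison asked what TRAIL changed in stimulated cells. The granzymes that had risen, Gzmb and Gzma, fell with TRAIL, as did Prf1, Srgn and Serpinb9, while Gzmk, Serpina3f and Serpina3g rose, and Ctsw and Gzmm did not pass. Counted by the same test, 3 members were higher, 5 were lower and 2 were not called, beside 76.7% of all genes called (48.1% higher, 28.6% lower). The libraries of the groups did not overlap for 9 of 10 members, Gzmm being the exception, as for 80.5% of all genes. The median log2 fold change was -0.24 over the members and 0.25 over all genes. This comparison shares the stimulated libraries with the first one, so opposite signs in the 2 are not independent and the values are given side by side.

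With TRAIL, Gzmb was at 63.9, 66.7 and 55.2 TPM, and its mean of 61.9 ± 5.99 TPM (SD, n = 3) stood against 1567 ± 48.2 TPM (SD, n = 3) without TRAIL. The 3 libraries were alike and far below every stimulated library (log2 fold change -4.64, SE 0.08, adjusted p = 1.84e-08), with mean TPM 25.3 times higher without TRAIL. Gzma was at 19.2, 15.3 and 15.7 TPM with TRAIL and fell by 3.44 (SE 0.14, adjusted p = 2.32e-07), with mean TPM 11.5 times higher without it. Gzmk was at 2.93, 2.06 and 2.56 TPM, all above the stimulated libraries (1.01, SE 0.16, adjusted p = 5.91e-04). Gzmm was at 0.941, 1.16 and 0.749 TPM, within reach of the stimulated libraries (-0.08, SE 0.14, adjusted p = 0.609).

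Prf1 was at 17.7, 16.5 and 16.98 TPM with TRAIL and fell by 1.17 (SE 0.08, adjusted p = 3.86e-06). Srgn was at 878, 849 and 893 TPM and fell by 1.53 (SE 0.10, adjusted p = 2.60e-06). Serpinb9, at 59.7, 56.4 and 56.4 TPM, fell by 0.41 (SE 0.07, adjusted p = 9.38e-04). For these 3 genes the libraries with TRAIL lay between those in medium and those with stimulation alone.

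Serpina3f was at 63.3, 57.0 and 60.2 TPM with TRAIL and rose by 0.62 (SE 0.06, adjusted p = 4.48e-05). Serpina3g was at 49.2, 47.8 and 54.3 TPM and rose by 0.50 (SE 0.10, adjusted p = 0.00163). All libraries with TRAIL were above all stimulated libraries for both genes. Scaling the libraries by the median of ratios, which moved the median of all genes from 0.25 to 0.01, left Serpina3g at 0.24 with an adjusted p of 0.104, and the authors' deposited table gives it 0.19 with an adjusted p of 0.161. Ctsw, at 33.7, 34.9 and 31.1 TPM, was not called (0.18, SE 0.07, adjusted p = 0.0582) and turned to -0.087 under the scaling. It passed in 2 of the 6 fits with 1 library left out (without stimulated replicate 1, 0.21, adjusted p = 0.0155, and without TRAIL replicate 3, 0.22, adjusted p = 0.0465), and over these 6 its adjusted p ran from 0.0155 to 0.183. Under that scaling the split of all called genes moved from 62.7% to 50.1% higher, and in the first comparison from 35.9% to 50.4%, where the members stayed at 8 higher and 2 lower.

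The third comparison set cells with antibodies and TRAIL against medium. Gzmb, Ctsw, Serpina3f and Serpina3g passed as higher than medium under every alternative run, and Gzmm passed as lower in fewer of them. The 5 other members differed from medium by less than 0.6 on the log2 scale. The count was 7 higher (Gzma, Gzmb, Prf1, Srgn, Ctsw, Serpina3f and Serpina3g) and 1 lower (Gzmm), beside 17.2% of all genes called (7.25% higher, 9.93% lower). Libraries of the groups did not overlap for 9 of 10 members, all but Gzmk, as for 60.5% of all genes. Leaving out 1 library with TRAIL at a time gave at most 5 members called. Calls over all genes fell in the same fits, to 1433 to 1534 from 2411 in the main fit. Gzmb, Ctsw, Serpina3f and Serpina3g passed under every alternative run, whereas Gzma, Gzmm, Prf1 and Srgn each failed under at least 5.

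Gzmb was 4.66 times its mean TPM in medium (log2 fold change 2.14, SE 0.09, adjusted p = 6.01e-06). Serpina3f was 13.7 times its mean in medium (3.50, SE 0.07, adjusted p = 3.31e-07) and Serpina3g 5.79 times (2.40, SE 0.11, adjusted p = 7.67e-06). Ctsw stood 0.80 above medium (SE 0.08, adjusted p = 5.59e-04). Gzma was only 0.55 above (SE 0.15, adjusted p = 0.0426), Prf1 0.32 above (SE 0.09, adjusted p = 0.0436) and Srgn 0.37 above (SE 0.11, adjusted p = 0.0498). Gzmm was 0.70 below (log2 fold change -0.70, SE 0.15, adjusted p = 0.0169), while Gzmk (-0.29, SE 0.18, adjusted p = 0.322) and Serpinb9 (0.20, SE 0.08, adjusted p = 0.126) did not pass. The authors' deposited table has 5 members higher and 1 lower here, against 8 and 1 for stimulation over medium and 2 and 5 for TRAIL over stimulation alone. How many of all genes passed in the authors' comparisons was not worked out, so these counts are not read as a result about the members.

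**Figure D2:**
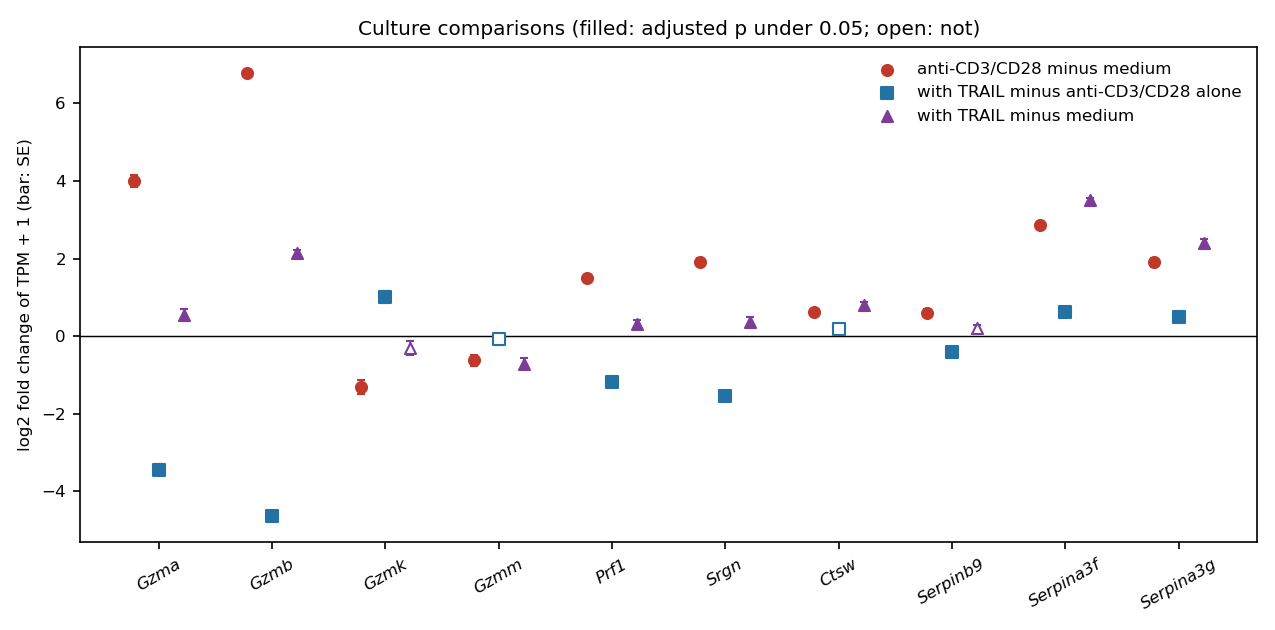
Log2 fold change of TPM + 1 with its SE for the 10 genes in the 3 culture comparisons, filled where the adjusted p was under 0.05. Gzmb has the largest values, 6.78 with stimulation and -4.64 with TRAIL, while Serpina3f and Serpina3g have filled points above 0 in all 3.

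The order of levels across the culture groups took 3 forms. Gzma, Gzmb, Prf1, Srgn and Serpinb9 were highest with stimulation, next with TRAIL and lowest in medium. For Serpinb9 the last step missed the test, and for Gzma, Prf1 and Srgn it was lost under several alternative runs. Serpina3f, Serpina3g and Ctsw were highest with TRAIL and lowest in medium. The step from stimulation to TRAIL missed the test for Ctsw, and for Serpina3g it was lost under the scaling. Gzmk and Gzmm were highest in medium. Gzmk with TRAIL overlapped medium, and Gzmm with TRAIL overlapped stimulation alone.

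The make-up of the granzyme transcripts moved with these changes. Gzmb made up 43.0% to 44.3% of the summed granzyme TPM in medium, 86.7% to 90.3% with stimulation and 68.8% to 74.1% with TRAIL. Gzma made up 33.9% to 38.8%, 9.28% to 12.8% and 16.95% to 20.7%, in that order. Gzmk held 9.84% to 11.9% in medium, 0.0287% to 0.0626% with stimulation and 2.29% to 3.23% with TRAIL. Shares of one total are tied to each other, so the fall of the Gzmk share with stimulation includes the rise of Gzmb.

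**Figure D3:**
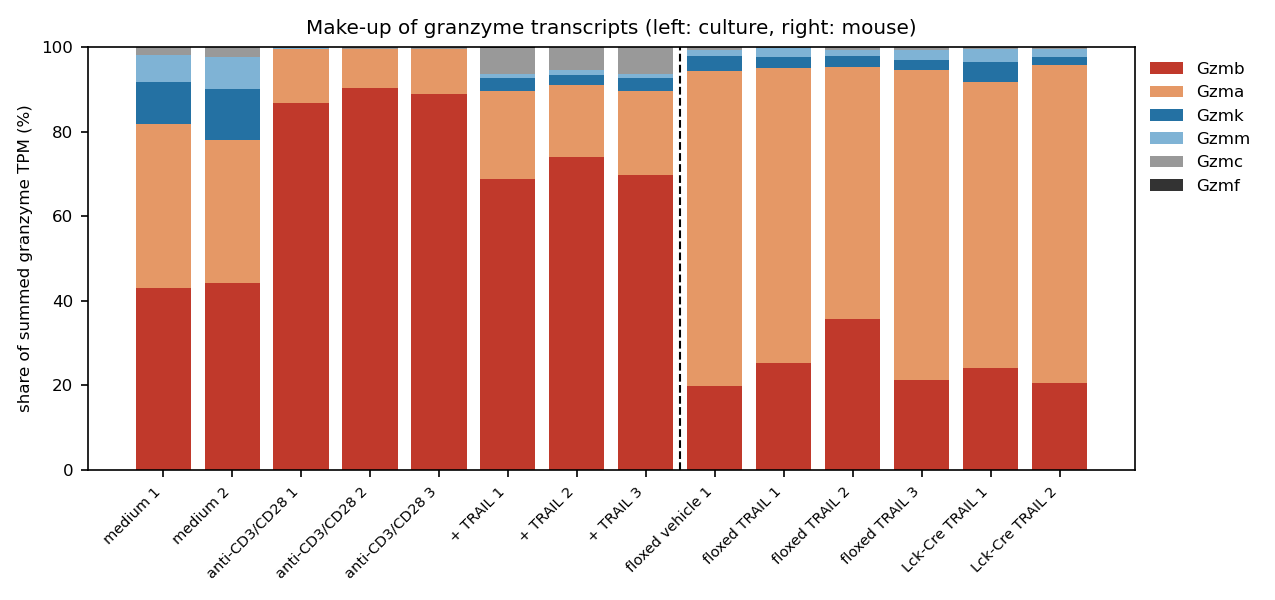
Share of the summed granzyme TPM (percent) taken by each granzyme in every library, culture left and mouse right of the dashed line. Gzmb takes 86.7% to 90.3% in the stimulated libraries, and Gzma takes 59.8% to 75.3% in the mouse libraries.

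Ratios of TPM within a library compare a protease with its inhibitor or partner. The ratio of Serpinb9 to Gzmb was 4.15 and 3.37 in medium, 0.0527, 0.0462 and 0.0480 with stimulation, and 0.935, 0.846 and 1.02 with TRAIL. The inhibitor's transcript was the more abundant in medium, far the less abundant with stimulation, and close to that of granzyme B with TRAIL. Prf1 to Gzmb went from 1.10 and 0.938 to 0.0231, 0.0268 and 0.0261, and stood at 0.278, 0.248 and 0.309 with TRAIL. Gzmk to Gzma was 0.260 and 0.356, then 0.00336, 0.00369 and 0.00652, then 0.157, 0.141 and 0.168. For these 3 ratios no 2 culture groups overlapped. Serpina3g to Serpina3f was 1.97 and 1.94 in medium and 1.01, 0.920 and 0.815 with stimulation, while the values with TRAIL, 0.777, 0.840 and 0.903, overlapped those with stimulation. Over the 4 ratios and 16 comparisons tested, 11 of the 12 culture tests gave an exact two-sided permutation p of 0.1, the smallest these group sizes allow, so no ratio could reach 0.05 and adjusted values could not be lower. The other culture test, Serpina3g to Serpina3f for TRAIL against stimulation, gave an exact permutation p of 0.4.

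**Figure D4:**
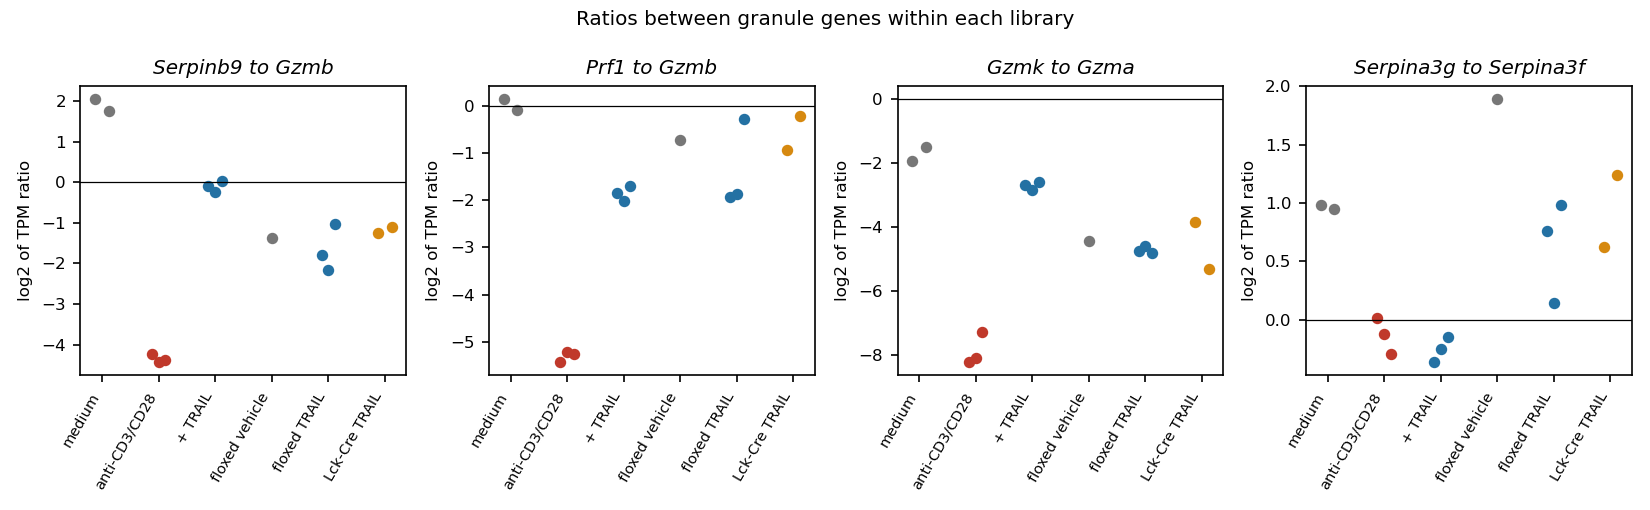
Log2 of the TPM ratio of gene pairs in each library (points), by group, on a linear axis of log2 values with 0 marking equal levels. The Serpinb9 to Gzmb ratio lies below -4 in the 3 stimulated libraries and near 0 in the 3 with TRAIL.

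Genes that mature, carry and release granule cargo moved in both directions. Of 17 such genes tested, 7 were higher and 7 lower with stimulation, and 8 were higher and 7 lower with TRAIL over stimulation, a split that became 10 and 6, then 5 and 8, under the scaling. Cst7, which encodes cystatin F, an inhibitor of cathepsin C, was 17.9 and 20.4 TPM in medium, 106, 93.2 and 92.6 TPM with stimulation and 24.7, 25.3 and 29.7 TPM with TRAIL (2.29, adjusted p = 5.21e-07, then -1.84, adjusted p = 9.34e-07). Ctsc, the cathepsin that activates granzyme precursors, did not pass with stimulation (0.01, adjusted p = 0.91) and rose by 0.32 with TRAIL. Ctsh, which can also process granzyme B, fell by 2.31 with stimulation and rose by 2.23 with TRAIL, and Ctsl had -1.96 and 1.36. Lyst, a regulator of lysosome size, rose by 1.99 with TRAIL. Nkg7, a granule membrane protein, rose by 1.45 and fell by 0.80. Over medium, cells with antibodies and TRAIL had 5 of the 17 higher and 2 lower, led by Stx11 (0.66, adjusted p = 0.00139), a syntaxin needed for granule release, Nkg7 (0.65, adjusted p = 0.0201) and Ctsl (-0.60, adjusted p = 0.00528).

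Among regulators of the cytotoxic programme, 9 of 16 were higher and 4 lower with stimulation, and 4 were higher and 7 lower with TRAIL over stimulation. Il12rb2, a chain of the interleukin 12 receptor, had log2 fold changes of 4.84 and -2.39. Tbx21, the T-bet gene, had 4.30 and -2.34, Irf4 had 3.88 and -3.58, and Il2ra, the high affinity chain of the interleukin 2 receptor, had 3.54 and -2.86. Eomes, the T-box factor related to T-bet, rose with TRAIL over stimulation (0.76, adjusted p = 8.08e-05). Over medium, 7 of the 16 were higher with antibodies and TRAIL and 0 lower, with Il12rb2 at 2.45, Tbx21 at 1.96 and Eomes at 1.00. Of 15 other intracellular or A3 serpins, 7 were in the culture table and 4 were tested. Serpinb1a, an inhibitor of neutrophil serine proteases, fell by 1.97 with stimulation and rose by 2.42 with TRAIL, and Serpinb6a had -1.84 and 1.48. Of 6 other granzymes, only Gzmc passed the level filter in culture, and it rose with stimulation (2.16, adjusted p = 1.01e-06) and was not called with TRAIL over stimulation (-0.25, adjusted p = 0.0528). Under the scaling Gzmc was called lower with TRAIL over stimulation (-0.49).

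Markers of other cells moved in the same comparisons. In bulk libraries fewer cells of a type and less RNA per cell cannot be told apart. The 20 CD8 T and NK cell genes summed to 437 to 464 TPM in medium, 229 to 250 TPM with stimulation (6 higher, 9 lower) and 362 to 367 TPM with TRAIL (8 higher, 3 lower over stimulation). Under the scaling these splits turned to 8 higher and 6 lower, then 5 higher and 7 lower. None of the 20 was listed at 0 in any culture library. The lower sum with stimulation came from 3 genes: Klrd1 (mean 121 TPM in medium and 20.9 TPM with stimulation), and Fcer1g (91.5 and 25.1 TPM) and Tyrobp (73.3 and 9.96 TPM), which myeloid cells also express. Genes were left out after their values were seen. Without Fcer1g and Tyrobp, the other 18 summed to 302 and 269 TPM in medium. They summed to 197 to 209 TPM with stimulation and 236 to 249 TPM with TRAIL. Without Klrd1 as well, the other 17 summed to 160.1 to 169 TPM in medium. They summed to 179 to 185 TPM with stimulation and 189.9 to 201 TPM with TRAIL. The sum of 18 was thus lower with stimulation and that of 17 slightly higher, so the direction depended on Klrd1. Both sums were higher with TRAIL than with stimulation alone in the unscaled values, and they were not worked out under the scaling. Cd8a, a CD8 chain gene, was 29.03 and 28.3 TPM in medium, 39.96 to 44.02 TPM with stimulation and 40.7 to 43.3 TPM with TRAIL. Cd8b1, the gene of another CD8 chain, did not rise with it. The group means of Cd8b1 were 51.9, 48.1 and 47.3 TPM in the same order. Ncr1, an NK cell receptor gene, was 6.76 to 8.21, 2.45 to 2.53 and 8.64 to 10.6 TPM in that order.

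All 10 B cell genes, all 14 macrophage and monocyte genes and all 13 neutrophil genes tested fell with stimulation and rose with TRAIL over stimulation, in the unscaled values. Their sums were 1577 to 1617, 262 to 317 and 1366 to 1393 TPM for B cells, 1326 to 1424, 66.9 to 74.2 and 511 to 595 TPM for macrophages and monocytes, and 323 to 350, 38.4 to 52.6 and 214 to 238 TPM for neutrophils, in the order medium, stimulation and stimulation with TRAIL. Retnlg, a neutrophil marker, was listed at 0 in all 3 stimulated libraries. Ly6g, a neutrophil gene too low to be tested, went the other way. It was 0.101 to 0.183 TPM in medium, 0.377 to 0.611 TPM with stimulation and 0 to 0.233 TPM with TRAIL. The B cell, macrophage and monocyte, and neutrophil sums were lowest with stimulation alone, as were Gzmk, Ctsh, Ctsl and Serpinb1a, and Gzmb was highest there. The 7 mast cell and basophil genes tested gave 1 higher and 6 lower with stimulation and the reverse with TRAIL, the 3 platelet genes all fell and rose, and the 8 plasmacytoid dendritic cell genes gave 2 higher and 5 lower, then 6 and 2. The 10 CD4 T cell genes gave 2 higher and 6 lower with stimulation and 4 higher and 3 lower with TRAIL. Under the scaling their splits turned to 4 higher and 2 lower, then 1 higher and 4 lower. The part of any of these cells in the members' changes was not tested.

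In the mouse libraries no difference between groups passed for any member, and the levels of all 10 overlapped between the TRAIL groups. No library labelled Lck-Cre was given vehicle, so a change of the response to TRAIL with genotype could not be measured. The labelled genotypes could be compared only with TRAIL present. Between the libraries labelled Lck-Cre and the floxed libraries, both with TRAIL, limma called 0 of 10 members and 0.0% of all genes, and at an unadjusted p under 0.05 it found 0 members and 0.748% of all genes. The groups overlapped for each of the 10 members, while they did not for 11.3% of all genes. The median log2 fold change was -0.24 over the members and -0.04 over all genes.

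Gzma was the granzyme with the highest level in every mouse library, at 99.4 TPM with vehicle, 87.7, 119.8 and 95.8 TPM in floxed libraries with TRAIL, and 51.9 and 108 TPM in those labelled Lck-Cre. Gzmb was 26.5 TPM with vehicle, 31.8, 71.3 and 27.8 TPM, and 18.5 and 29.4 TPM. Floxed TRAIL replicate 2 stood above the others for Gzmb, and the Lck-Cre difference was -0.75 on the log2 scale (SE 0.46, adjusted p = 0.999847). Without that floxed library it was -0.34 (SE 0.33), and without Lck-Cre replicate 1, whose TRAIL treatment is given by its title alone, it was -0.43 (SE 0.56) with 0 members called. Gzma made up 59.8% to 75.3% of granzyme TPM and Gzmb 19.9% to 35.6%, whereas Gzmb led in culture. The culture and mouse tables were made separately and from different tissues, so this order across them was not tested.

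Gzmk ranged from 2.67 to 4.90 TPM and Gzmm from 2.06 to 3.23 TPM over the 6 libraries. Prf1 was 16.02 TPM with vehicle, 8.20, 19.5 and 22.8 TPM in floxed libraries with TRAIL and 9.61 and 25.1 TPM in those labelled Lck-Cre. Ctsw was 26.3 TPM, then 15.5, 31.8 and 44.3 TPM, then 22.9 and 54.1 TPM. For both genes the spread inside each TRAIL group was wider than the difference between groups. Srgn was 965 TPM, then 1504, 1105 and 808 TPM, then 1173 and 785 TPM.

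Serpinb9 ranged from 7.80 to 15.97 TPM. Serpina3f was 7.58 TPM with vehicle, 10.8, 42.1 and 9.55 TPM in floxed libraries with TRAIL and 13.2 and 7.78 TPM in those labelled Lck-Cre. Serpina3g was 28.4 TPM, then 18.3, 46.5 and 19.03 TPM, then 20.4 and 18.5 TPM. For both A3 serpins the highest value was floxed TRAIL replicate 2, the library that was also highest for Gzmb. Without it the Lck-Cre difference was 0.0016 for Serpina3f against -0.65 with it (SE 0.67), and 0.054 for Serpina3g against -0.37 with it (SE 0.44). The 4 ratios all overlapped between these groups, with exact two-sided permutation p of 0.3 to 0.8.

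The 1 vehicle library allowed only a comparison that assumed it varied like the other groups. Against it, limma called 0 of 10 members and 0.0% of all genes in the floxed libraries with TRAIL, with 0 members and 3.99% of all genes at an unadjusted p under 0.05. It lay below all 3 floxed libraries with TRAIL for 3 members (Gzmb, Gzmm and Serpina3f), and outside their range for 50.8% of all genes. Fold changes ran from -0.23 for Gzmk (SE 0.36) to 1.03 for Serpina3f (SE 0.84).

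The mouse libraries were sequenced on 2 lanes, as their labels give it: the vehicle library and replicate 1 of both TRAIL groups on lane 2, the rest on lane 4. Prf1, Ctsw, Serpinb9 and Gzmm were higher in all 3 libraries of lane 4 than in all 3 of lane 2, as were 36.0% of all genes. In a fit with group and lane, chosen after seeing the data, the lane term was 1.28 for Prf1 (SE 0.13, limma adjusted p = 0.0200), 1.22 for Ctsw (SE 0.17, adjusted p = 0.0202) and 0.67 for Serpinb9 (SE 0.15, adjusted p = 0.0355), with 27.4% of all genes called. The other 7 members did not pass. The neutrophil sum was 77317, 92715 and 104065 TPM in lane 2 and 29244, 19664 and 19068 TPM in lane 4, so it moved against these genes, while the CD8 T and NK cell sum was 1132, 1332 and 1179 TPM in lane 2 and 839, 904 and 975 TPM in lane 4. Fcer1g and Tyrobp, shared with myeloid cells, made up most of that sum, and without them, a choice made after seeing the data, it was 386, 231 and 234 TPM in lane 2 and 265, 400.1 and 439.6 TPM in lane 4. In that form the TRAIL libraries of lane 4 were above those of lane 2, and the vehicle library lay among the former. The part of lane or of other cells in these values was not tested.

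Within lanes, Lck-Cre minus floxed with TRAIL was -0.75 in lane 2 and -0.59 in lane 4 for Gzmb, 0.21 and 0.25 for Prf1, and 0.54 and 0.52 for Ctsw, on the log2 scale. The sign was the same in both lanes for 6 members, these 3 with Gzmm, Srgn and Serpinb9, and opposite for 4, Gzma (-0.75 and 0.02), Gzmk (0.12 and -0.46), Serpina3f (0.27 and -1.28) and Serpina3g (0.15 and -0.66). These differences rest on 1 library a group in lane 2, and on 2 floxed libraries against 1 labelled Lck-Cre in lane 4. How often the signs of other genes matched between lanes was not worked out, so the count is not read as a result. With lane as a term in the fit, 0 members and 0 genes were called.

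**Figure D5:**
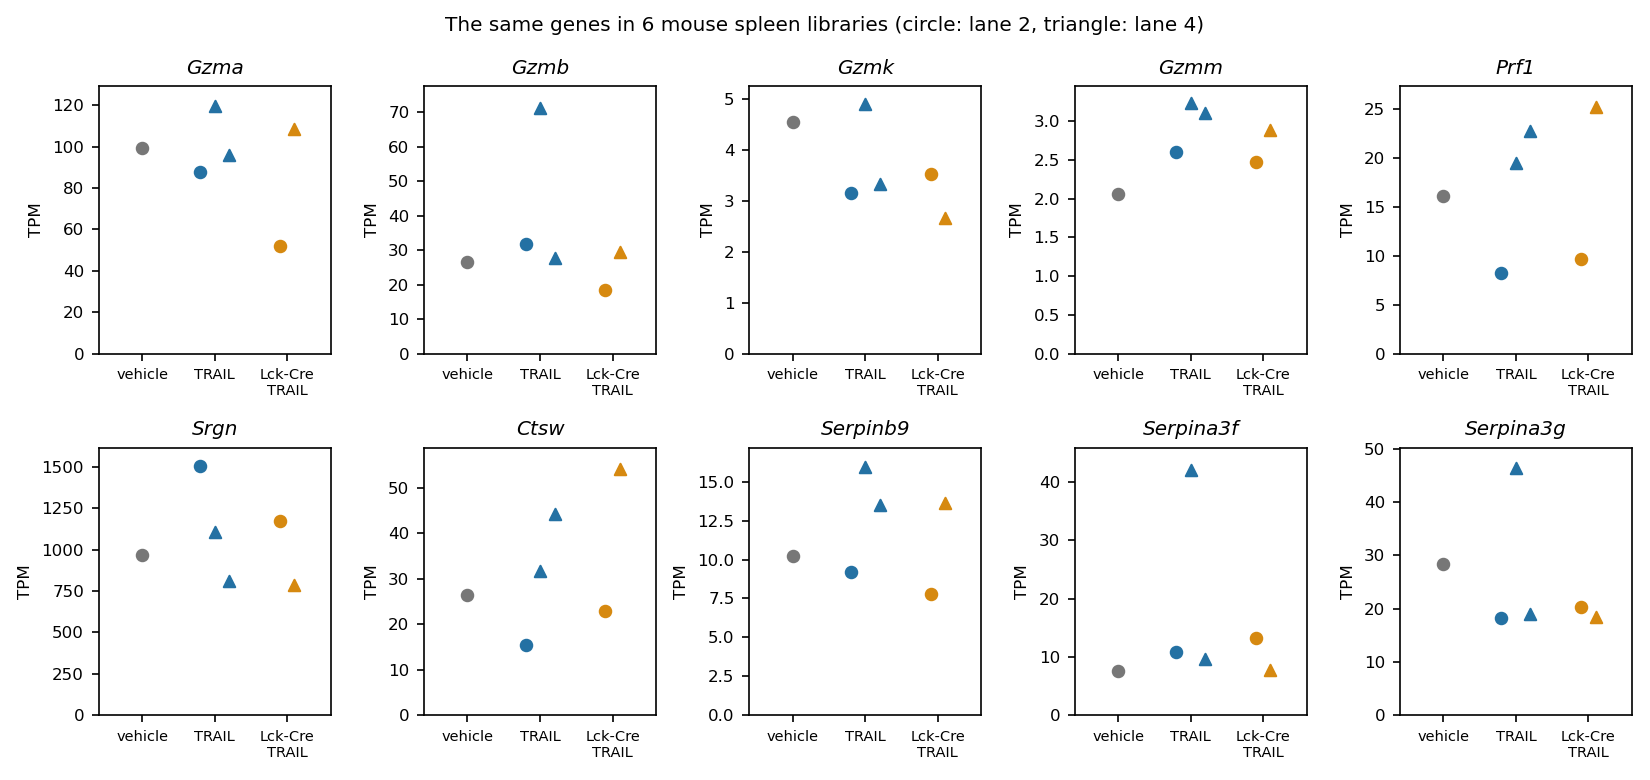
TPM of each gene in the 6 mouse libraries, by labelled group, with circles for lane 2 and triangles for lane 4, on linear axes from 0. Triangles lie above circles for Prf1, Ctsw, Serpinb9 and Gzmm, and floxed TRAIL replicate 2 stands out for Gzmb (71.3 TPM), Serpina3f (42.1 TPM) and Serpina3g (46.5 TPM).

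The genes with the most similar profiles were ranked by the root mean square difference of log2(TPM + 1) after centring each gene, a description over libraries of the same groups. Over the 8 culture libraries Gzmb was nearest to Lag3 (0.48) and Lif (0.62), against a spread of 2.79 of its own. Prf1 was nearest to Mcm4 (0.05) and Espn (0.05), against 0.64. Gzmk was nearest to Bcl2l14 (0.08), and Serpina3g to Isg20 (0.16), Gbp5 (0.19) and Gbp2 (0.21), with Serpina3f at rank 30 (0.46, against a spread of 0.96). Over the 6 mouse libraries Gzmb was nearest to Gbp7 (0.13) and Herc6 (0.13), Prf1 to Cd7 (0.05), Gzmk to Lpxn (0.08) and Serpina3g to Ly6a (0.12), with Serpina3f at rank 5178 (0.51, against a spread of 0.47). Except for Serpina3f, the listed neighbours are not members, and they were named by their rank alone.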

How the data were processed

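The authors deposited 2 gene tables, for culture and mouse. The culture values are TPM per the file headers, and the same unit was inferred for the deposited mouse columns, whose headers name none, from their equal sums. The deposited log2 fold changes, p-values and adjusted p-values come from the authors' own comparisons, and lengths are in bases per gene, per the file headers. The submitters' processing notes name the build GRCm38.p6 and, with no roles, DESeq2 1.26.0, StringTie 2.1.4, HISAT2 2.1.0, SAMtools 1.2 and Trimmomatic 0.36; counting by strand is not stated.

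All members were named in every comparison, and other listed genes by size of change among those called, apart from Ctsc and the single cell type markers, which were chosen after their values were seen. The members and lists were chosen with earlier results of these data known. TPM was tested as log2(TPM + 1) with limma 3.58.1 in R 4.3.3 (moderated, with trend), all libraries of an experiment in 1 fit, for genes whose mean TPM reached 1 (14035 in culture, 14176 in mouse), two-sided, Benjamini-Hochberg adjusted over all genes tested at 0.05. The procedure was tested on simulated data. Ratios used a pseudocount of 0.1 TPM; levels of linear ratios are of TPM plus that pseudocount. Each library's reads were recovered as whole multiples in TPM times length, to within 2.33e-10; counting error is larger for genes near 1 TPM. Alternatives were another pseudocount, no filter, median-of-ratios scaling, only the groups compared, a replicate block, lane, and leaving out each library.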

Additional observations from a re-analysis of the deposited data

How the results depend on the processing

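For stimulation over medium and TRAIL over stimulation, the number of members called stayed within 1.5 times under every alternative run. For TRAIL with stimulation over medium it was 8 in the main analysis, 5 with no level filter, 5 with the replicate block, and 4 to 5 when a library was left out. Over all genes that comparison gave 2411 calls, 2697 with no level filter, 1356 with the replicate block and 5141 with only the groups compared. It gave 1433 to 1534 when a library with TRAIL was left out. Of its member results, 28 of 100 lost their call with the same direction and 1 (Serpinb9, only the groups compared) gained one; the cause was not tested. Gzmm with stimulation lost its call in 1 of the leave-one-out fits, and Serpina3g with TRAIL over stimulation lost its call under scaling, while Ctsw there gained one in 2 of the leave-one-out fits.

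Same-numbered culture libraries did not deviate together (r from -0.13 to 0.08), so the numbers were not taken as pairs. Medium replicate 2 is numbered by its title, while its bracketed name is medium_3, and the replicate block used the title's number. With replicate 3 of stimulation and of stimulation with TRAIL it gave r of -0.08 and 0.07. In the mouse libraries the 2 shared numbers coincide with lanes (r of 0.70 and 0.22). The block called 0 members there, and the vehicle library carries no number to pair.

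Direction changed only for uncalled members. Scaling turned Ctsw to -0.087 for TRAIL over stimulation and Gzma to -0.063 for TRAIL over vehicle. The lane term turned Gzma to -0.40, Ctsw to -0.72 and Serpinb9 to -0.17 in the latter. With 1 library left out, Lck-Cre over floxed ranged from -0.94 to 0.11 for Gzma, -0.63 to 0.67 for Prf1, -0.49 to 0.088 for Srgn, -0.28 to 0.93 for Ctsw, -0.63 to 0.11 for Serpinb9, -1.01 to 0.0016 for Serpina3f and -0.59 to 0.054 for Serpina3g. TRAIL over vehicle ranged from -0.12 to 0.11 for Gzma, -0.31 to 0.37 for Prf1, -0.030 to 0.42 for Srgn, -0.23 to 0.50 for Ctsw and -0.58 to 0.070 for Serpina3g. Among the log2 ratios, Lck-Cre over floxed ranged from -0.58 to 0.88 for Gzmk to Gzma and from -0.0038 to 0.61 for Serpina3g to Serpina3f. A group left with 1 library was assumed to vary like the others. Depth limits Gzmk and Gzmm, which rest on 10 to 55 reads a library in culture.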
